A study of Mus musculus with 24 samples.

Results

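The complement system was described here through 33 genes for its components, regulators and receptors, out of 18539 gene symbols that the arrays could name. The members were fixed as a gene list and were read on the non-control probes whose accession maps to them, with the brightest probe of a gene used in each tissue. Of the 33 genes, 32 had a probe, with 39 probes in all, and no probe was matched to C7. In 6 genes (C2, Masp2, C3, Cd59a, C3ar1 and Itgam) more than 1 probe was present, and the brightest probe was the same in both tissues for all 32.

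Complement is a cascade of plasma proteases that tags and lyses targets. The classical pathway starts when C1q binds an antibody or another ligand, the lectin pathway when mannose-binding lectins or ficolins bind sugars, and the alternative pathway amplifies C3 that is already deposited, and all of these meet at C3 and then at C5, which opens the terminal, membrane-attacking pathway. The liver supplies most of the plasma proteins, macrophages are a major source of C1q, and cells of the vessel wall, fibroblasts included, also make several components, while endothelial cells carry inhibitors on their surface that protect them from their own plasma.

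RNA was read on 24 single-colour Agilent arrays, 3 for each of 8 groups. WT mice were C57BL/6 J, and KO mice were homozygous for a deletion in Lgals3, which encodes galectin-3. All were males, 8 weeks old at the start, and were fed for 8 weeks on chow (12% of calories from fat) or on a high-fat diet, HFD (60%). Endothelium of the aorta or of leg muscle was sorted from a collagenase digest as living cells positive for CD105 and negative for CD45, a gate that also carries any other cell with this surface. Each array held amplified RNA of a pool of animals, of 3 mice by the methods and up to 4 by the deposited description, and the pools of both tissues came from the same animals. The numbered experiments 1 to 3 are taken as replicates, so that n = 3 in each group. Levels below are log2 of the processed signal over the 75th percentile of its array, so that 0 is that percentile, and they are compared between arrays for 1 probe, never between genes.

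Detection above background held for 59.5% to 75.7% of spots on an array, and 0 spots were saturated. The Lgals3 probe was not lower on the KO arrays. It read 2.40 to 4.53 on the 6 KO arrays of the aorta against 0.90 to 3.20 on the 6 WT arrays, and 4.31 to 6.31 against 3.27 to 4.98 in muscle. Whether that probe lies in the deleted exons was not analysed here, so it checks no label, and WT and KO are used as the arrays are labelled. All 12 endothelial markers on the list were well above background on all 24 arrays, with a mean level of 2.72 to 4.67 in aorta and 4.79 to 5.27 in muscle. The fibroblast list was also high in aorta, at 4.25 to 5.85 with 10 of 10 genes above background on every array. In muscle it lay between 1.50 and 3.24 in experiment 1 and between −0.72 and 1.32 in experiments 2 and 3, so that the 4 muscle arrays of experiment 1 stood apart. Each slide held 1 tissue of 1 experiment with all 4 groups of it, and tissue and slide cannot be told apart within an experiment. By the scan dates, experiment 1 was scanned in 1 session and experiments 2 and 3 in another. Where experiment 1 is set against the other experiments, experiment and scan session cannot be told apart.

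The probes of 16 members were well above background on all 24 arrays (C1qb, C1qc, C1ra, C2, C4b, C3, Cfb, Cfp, C8g, Serping1, Clu, Vtn, Cd55, Cd59a, Cr1l and Itgb2). Another 12 passed on some arrays (C1qa, Mbl2, Fcna, Fcnb, Masp1, Masp2, Hc, C6, Cfi, C3ar1, C5ar1 and Itgam), and 4 were well above background on 0 arrays (Mbl1, C8a, C8b and C9). Members were tested where all 3 arrays of some group were clearly above background, which held for 23 in aorta, 23 in muscle and 24 between the tissues. The remaining members were not tested and are given by their detection, which for some of them held on part of the arrays.

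**Figure D1:**
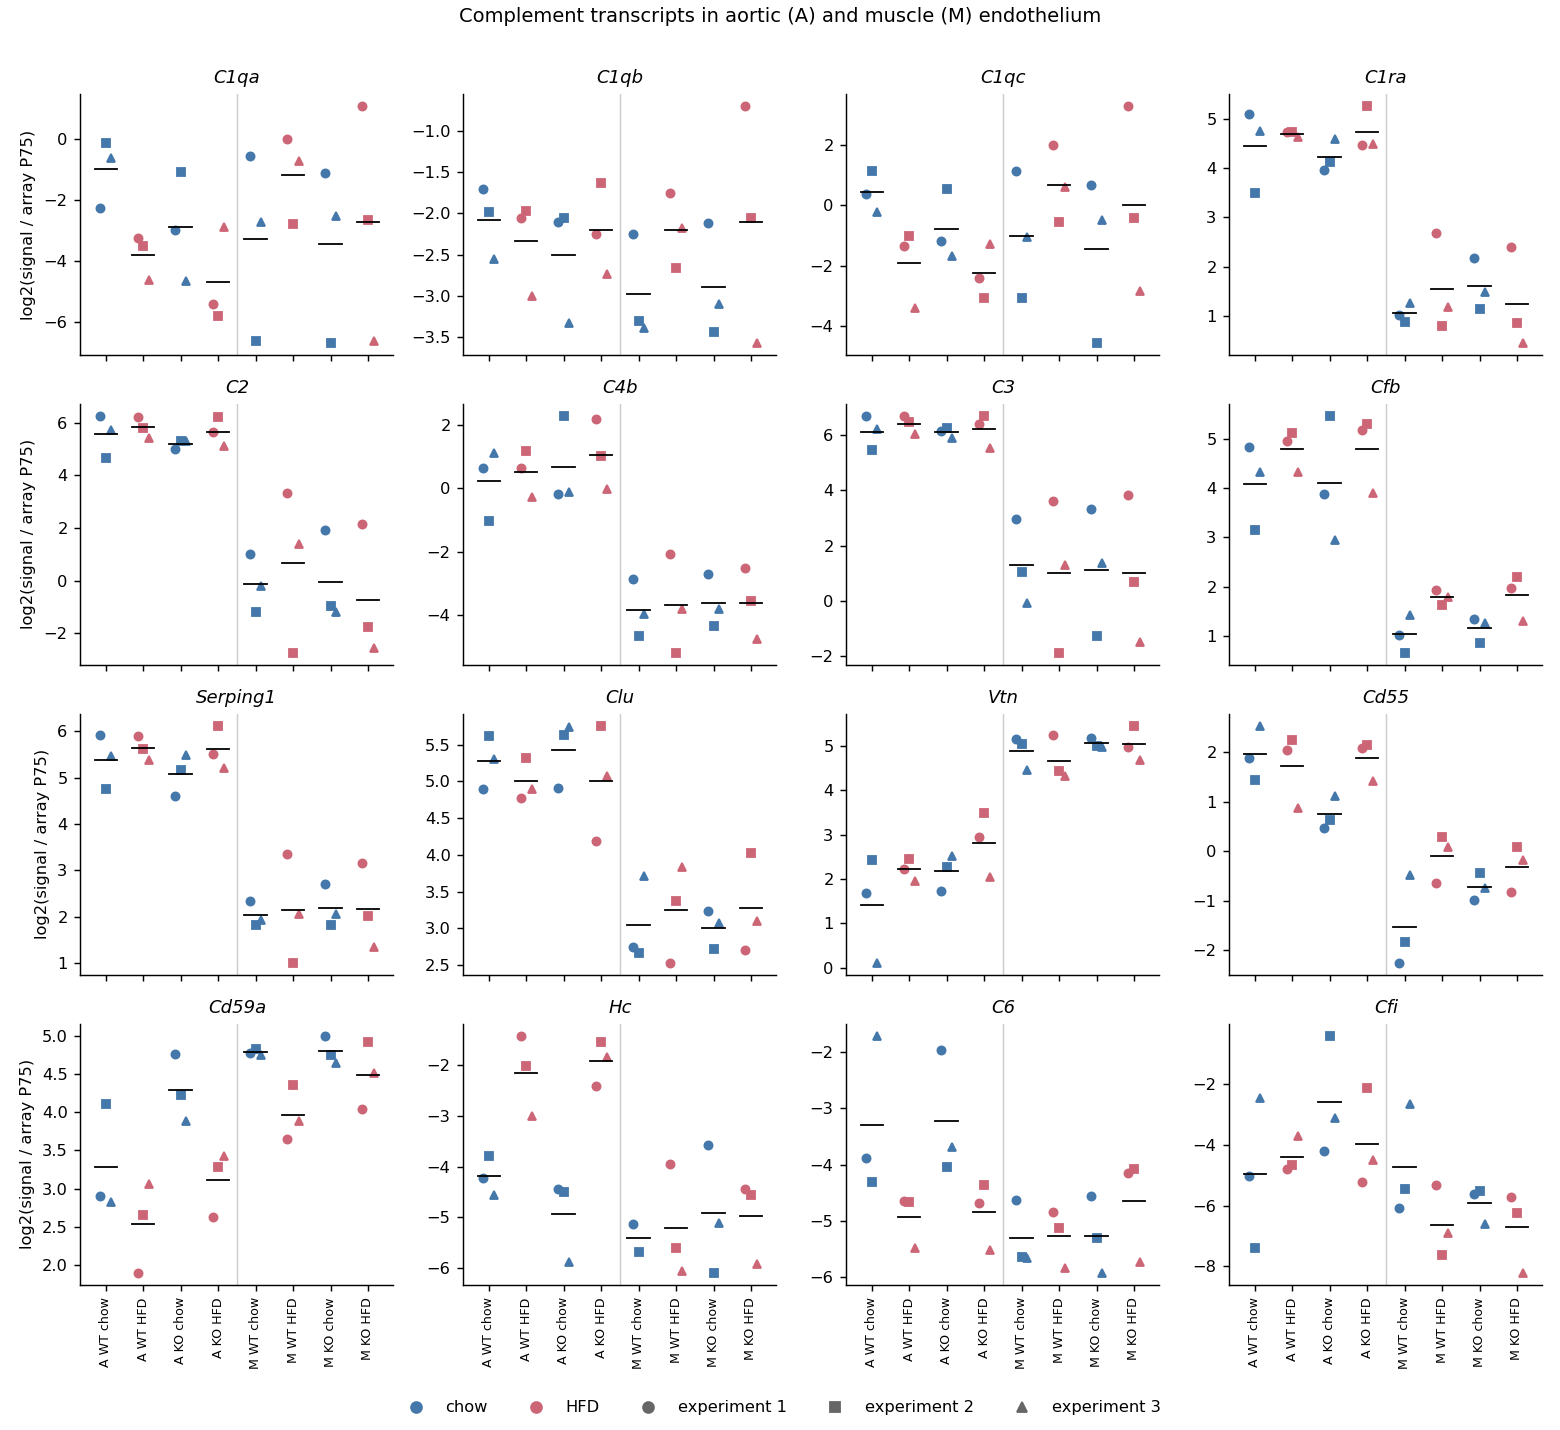
Log2 signal relative to the 75th percentile of the array (P75) for 16 complement genes on each of the 24 arrays, in aortic (A) and muscle (M) groups by strain and diet, with colour for diet, symbol for experiment and a line at the mean of each group. C3, C2, C1ra, C4b, Cfb, Serping1, Clu and Cd55 lie higher on all 12 aortic arrays than on any muscle array, and Vtn lies lower.

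The contrast that carried the complement genes was the tissue. Aortic and muscle endothelium were compared in each strain and diet (limma on all 24 arrays, Benjamini-Hochberg over 27387 probes, called at an adjusted p under 0.05). Of 24 members tested, 9 were called higher and 2 lower in aorta in WT chow, where 7.63% and 7.88% of all probes were called in those directions. In WT HFD 9 were higher and 2 lower, against 8.30% and 8.37% of all probes. The counts were 7 and 1 in KO chow, against 4.43% and 1.98%, and 9 and 3 in KO HFD, against 8.15% and 8.20%. The median difference of the members was 1.33, 0.64, 0.98 and 0.24 in these contrasts, while that of all probes was −0.27, −0.23, −0.23 and −0.27, and the differences below are read against that shift. In the deposited log2 table, which is centred within each tissue, the shift was between −0.01 and 0.04. There 2607 probes were higher and 1009 lower in WT chow, 2809 and 1260 in WT HFD, 1649 and 277 in KO chow, and 2809 and 1146 in KO HFD. The called members were then 9 higher and 2 lower in each contrast, except for 9 and 1 in KO chow.

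C1ra, C2, C4b, C3, Cfb, Serping1 and Clu were called higher and Vtn lower in all 4 contrasts. Every aortic array was above every muscle array for 8 members, these 7 and Cd55, and below for Vtn alone, where 3.55% and 2.10% of all probes separate in this way. The counts rest on the number of experiments. With experiment 1, 2 or 3 left out, 8, 9 or 6 members were called in WT chow, 7, 4 or 7 in WT HFD, 7, 1 or 2 in KO chow, and 7, 6 or 6 in KO HFD. The median difference of the members in KO HFD was then 0.67, −0.01 or −0.11. No member called changed its sign in any of these fits. The number of all probes called fell in these fits too, with the numbers for KO chow given further below. The lower counts are therefore not a result about complement genes alone. With the arrays of a slide treated as correlated (0.28), a setting chosen after the data had been seen, 10, 11, 8 and 12 members were called. Of all 27387 probes, 4004, 4488, 1635 and 4431 were called in this setting. With the pool of animals as a block, 11, 12, 11 and 14 members were called, where 22.7%, 23.7%, 9.95% and 24.8% of all probes were called, against 15.5%, 16.7%, 6.40% and 16.3% without the block.

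**Figure D2:**
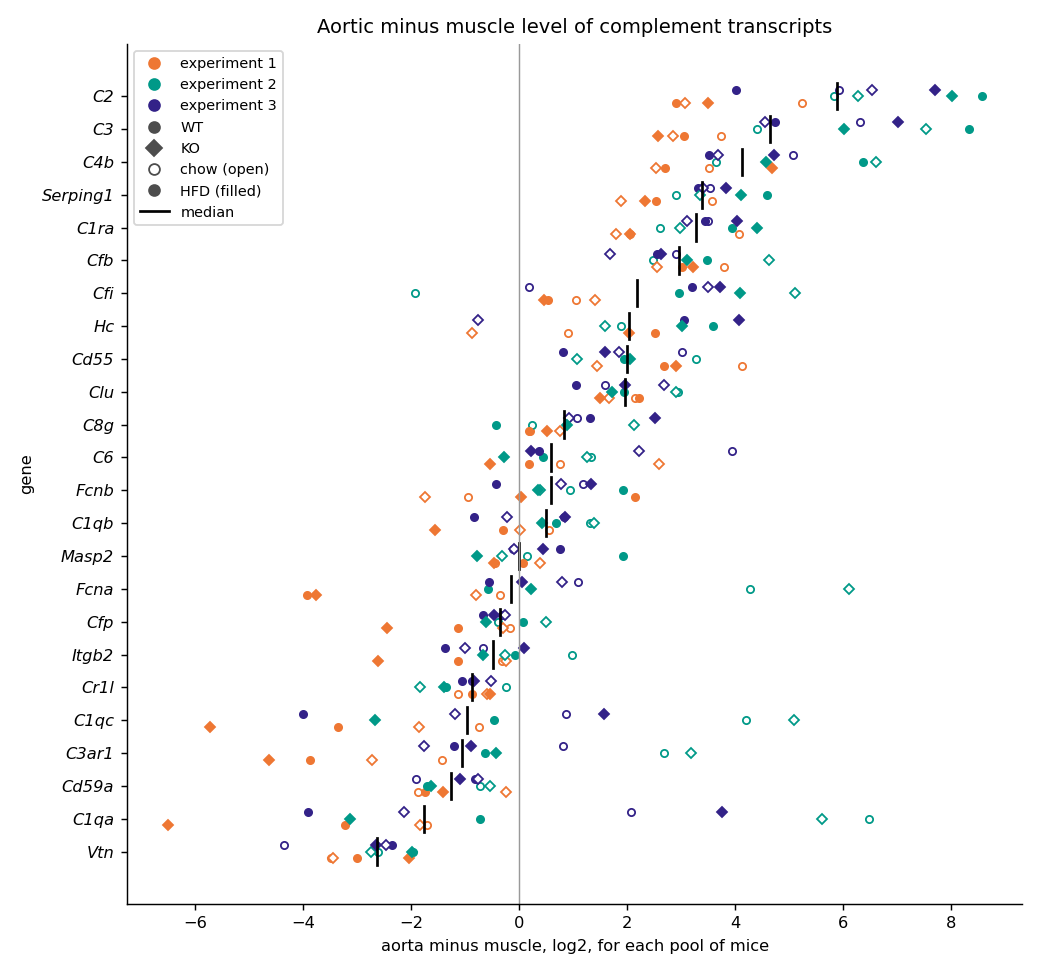
Aorta minus muscle difference in log2 signal for the 24 complement genes tested, 1 point for each of the 12 pairs of arrays that share a pool of mice (11 for Hc), with colour for experiment, shape for strain, filled points for HFD and a line at the median. All 12 pairs are above 0 for C1ra, C2, C4b, C3, Cfb, Serping1, Clu and Cd55 and below 0 for Vtn, Cd59a and Cr1l, while C1qa and C1qc fall on both sides. The points nearest 0 for Cd59a (−0.24) and Cr1l (−0.25) are about the median shift of all probes (−0.23 in KO chow and −0.27 in WT chow).

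The classical pathway downstream of C1q was higher in aorta throughout. C1ra encodes the protease C1r that C1q activates. Its levels are given, here and below, in the order of experiments 1, 2 and 3. In aorta, C1ra read 5.09, 3.50 and 4.75 in WT chow, 4.74, 4.74 and 4.62 in WT HFD, 3.96, 4.12 and 4.59 in KO chow, and 4.46, 5.26 and 4.48 in KO HFD. In muscle, C1ra read 1.01, 0.88 and 1.26 in WT chow, 2.68, 0.79 and 1.18 in WT HFD, 2.17, 1.14 and 1.49 in KO chow, and 2.40, 0.86 and 0.45 in KO HFD. Every aortic array was higher than every muscle array, and the muscle array of WT HFD in experiment 1, at 2.68, was the nearest. The difference was 3.39 in WT chow (adjusted p = 2.3e-04), 3.15 in WT HFD (adjusted p = 4.2e-04), 2.63 in KO chow (adjusted p = 0.0035) and 3.50 in KO HFD (adjusted p = 1.9e-04), with a standard error of 0.51 and 3 experiments in each (limma). As a fold this was 6.18 to 11.3.

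C2, whose product joins C4b in the classical C3 convertase, had the largest difference of the members in every contrast but WT HFD, where C3 exceeded it. In aorta, C2 read 6.27, 4.66 and 5.74 in WT chow, 6.24, 5.82 and 5.42 in WT HFD, 5.01, 5.31 and 5.32 in KO chow, and 5.65, 6.24 and 5.12 in KO HFD. In muscle, C2 read 1.03, −1.19 and −0.19 in WT chow, 3.33, −2.75 and 1.41 in WT HFD, 1.94, −0.95 and −1.21 in KO chow, and 2.16, −1.77 and −2.58 in KO HFD. The 4 muscle arrays of experiment 1 lay between 1.03 and 3.33, and of the other 8 only WT HFD of experiment 3 reached above 0. The difference was 5.67 in WT chow (adjusted p = 0.0045), 5.16 in WT HFD (adjusted p = 0.0076), 5.29 in KO chow (adjusted p = 0.013) and 6.40 in KO HFD (adjusted p = 0.0018), with a standard error of 1.25 (limma), or 35.9-fold to 84.4-fold. Its second probe separated the tissues too, at 2.24 to 4.38 in aorta and −8.24 to 0.52 in muscle. Over the pairs of experiment 1 the median difference was 3.28, and over those of experiments 2 and 3 it was 6.40.

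C4b supplies the surface anchor of the same convertase. In aorta, C4b read 0.65, −1.01 and 1.12 in WT chow, 0.65, 1.19 and −0.28 in WT HFD, −0.16, 2.29 and −0.12 in KO chow, and 2.19, 1.02 and −0.01 in KO HFD. In muscle, C4b read −2.86, −4.66 and −3.95 in WT chow, −2.05, −5.18 and −3.78 in WT HFD, −2.69, −4.33 and −3.80 in KO chow, and −2.50, −3.54 and −4.74 in KO HFD. No aortic array was below −1.01 and no muscle array above −2.05. The difference was 4.08 in WT chow (adjusted p = 0.0035), 4.19 in WT HFD (adjusted p = 0.0026), 4.28 in KO chow (adjusted p = 0.0044) and 4.66 in KO HFD (adjusted p = 0.0012), with a standard error of 0.87 (limma). C4b has a near-identical neighbour, C4a, and C1ra has one in C1rb, so the probes of both genes may read either copy. The call of C2 was lost without experiment 3 in all 4 contrasts and without experiment 2 in WT HFD and KO chow (adjusted p at most 0.27). That of C4b was lost without experiment 3 in both chow contrasts and without experiment 2 in WT HFD and KO chow (at most 0.15), and that of C1ra without experiment 2 or 3 in KO chow (at most 0.16).

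The 3 chains of C1q, the recognition molecule that macrophages supply, were not called in any tissue contrast. In aorta, C1qa read −2.25, −0.11 and −0.62 in WT chow, −3.24, −3.51 and −4.63 in WT HFD, −2.96, −1.06 and −4.65 in KO chow, and −5.41, −5.79 and −2.87 in KO HFD. In muscle, C1qa read −0.55, −6.61 and −2.70 in WT chow, −0.01, −2.79 and −0.72 in WT HFD, −1.12, −6.68 and −2.51 in KO chow, and 1.09, −2.66 and −6.62 in KO HFD. On the aortic chow arrays of WT, C1qa was higher than on any other aortic array except KO chow of experiment 2, and in muscle the 3 highest values were all of experiment 1. Over 12 arrays its SD was 1.85 in aorta and 2.68 in muscle. In aorta, C1qc read 0.39, 1.15 and −0.20 in WT chow, −1.34, −1.01 and −3.40 in WT HFD, −1.17, 0.53 and −1.66 in KO chow, and −2.42, −3.07 and −1.27 in KO HFD. In muscle, C1qc read 1.13, −3.07 and −1.05 in WT chow, 2.01, −0.55 and 0.60 in WT HFD, 0.68, −4.56 and −0.48 in KO chow, and 3.30, −0.40 and −2.84 in KO HFD. C1qc varied with it, with an SD of 1.42 and 2.23 and a correlation with C1qa of 0.91 and 0.97 over the 12 arrays of a tissue, which share groups, slides and cells. In aorta, C1qb read −1.71, −1.99 and −2.55 in WT chow, −2.06, −1.97 and −3.00 in WT HFD, −2.11, −2.06 and −3.33 in KO chow, and −2.25, −1.63 and −2.73 in KO HFD. In muscle, C1qb read −2.25, −3.30 and −3.39 in WT chow, −1.76, −2.66 and −2.18 in WT HFD, −2.12, −3.44 and −3.10 in KO chow, and −0.70, −2.06 and −3.57 in KO HFD. C1qb moved least, with an SD of 0.52 in aorta and 0.86 in muscle and a correlation with C1qa of 0.17 and 0.85. The differences between the tissues had adjusted p values from 0.23 to 0.94 (limma) over the 3 chains, and the standard errors of 1.74 for C1qa, 1.40 for C1qc and 0.58 for C1qb limit what could be detected.

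The promoters of C1qb and C1qc, neighbours on chromosome 4, are shown because these chains differed in how far they moved. Each is the 250 bases before the annotated start in RefSeq, GRCm38.p6, read 5′ to 3′ on the strand of the gene, with a match to a searched motif in capitals.
C1qb, chr4:136886201-136886450 (minus strand): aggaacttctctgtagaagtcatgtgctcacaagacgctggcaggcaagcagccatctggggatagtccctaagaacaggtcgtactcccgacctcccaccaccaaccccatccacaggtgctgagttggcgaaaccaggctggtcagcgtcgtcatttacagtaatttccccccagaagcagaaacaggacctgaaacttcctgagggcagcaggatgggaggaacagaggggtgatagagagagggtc
C1qc, chr4:136892915-136893164 (minus strand): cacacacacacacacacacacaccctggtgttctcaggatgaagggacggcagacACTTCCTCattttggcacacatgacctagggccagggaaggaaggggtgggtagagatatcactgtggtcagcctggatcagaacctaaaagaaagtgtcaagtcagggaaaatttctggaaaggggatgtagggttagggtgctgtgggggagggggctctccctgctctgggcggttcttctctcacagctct
Both strands were searched for C/EBP (TTGCNNAA), GAS (TTCNNNGAA) and PU.1 (GAGGAAGT) motifs. The interferon element ISRE was searched as a repeat of GAAA spaced by 2 bases of any kind. For AP-1 the letters were TGANTCA, the binding site of the Fos and Jun factors. A PU.1 match lies 195 to 188 bases before the start of C1qc, on the opposite strand, and 2.44% of 32851 promoters hold one in a window of this length. Of the 24 members with a promoter in the table, C1qc was the 1 with this match, and no searched letters are in the C1qb window.

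The lectin pathway genes differed in how often they were detected. Mbl1, a plasma lectin made in the liver, was well above background on 0 arrays, Mbl2 on 2 of 12 in each tissue and the protease gene Masp1 on 1 of 24. Masp2, the protease that cleaves C4 and C2, was well above background on 11 of 12 aortic and 8 of 12 muscle arrays and ranged from −6.27 to −4.09 in aorta and from −6.48 to −4.48 in muscle on its brightest probe. Fcna, a ficolin of macrophages, was above background on 6 of 12 arrays of each tissue and spanned −8.19 to −1.64 in aorta and −9.24 to −1.87 in muscle. Fcnb, a ficolin of myeloid cells, was above background on 4 and 5 of 12 arrays and reached at most −4.52 and −5.32. None of the 3 lectin genes tested (Fcna, Fcnb and Masp2) was called between the tissues, with adjusted p values of at least 0.28 (limma).

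C3, the protein on which all pathways converge, and Cfb, the protease of the alternative C3 convertase, were both higher in aorta. In aorta, C3 read 6.70, 5.45 and 6.23 in WT chow, 6.70, 6.46 and 6.04 in WT HFD, 6.15, 6.27 and 5.91 in KO chow, and 6.39, 6.70 and 5.54 in KO HFD. In muscle, C3 read 2.96, 1.05 and −0.08 in WT chow, 3.63, −1.88 and 1.30 in WT HFD, 3.31, −1.26 and 1.36 in KO chow, and 3.82, 0.68 and −1.47 in KO HFD. The aortic arrays of C3 lay within a range of 5.45 to 6.70, whereas those of muscle were spread from −1.88 to 3.82, with the 4 highest all in experiment 1. The difference was 4.82 in WT chow (adjusted p = 0.017), 5.38 in WT HFD (adjusted p = 0.0074), 4.97 in KO chow (adjusted p = 0.024) and 5.20 in KO HFD (adjusted p = 0.0094), with a standard error of 1.29 (limma). Its median over the pairs was 2.95 in experiment 1 and 6.16 in experiments 2 and 3. Left without experiment 2 or without experiment 3, the adjusted p of C3 was above the threshold in all 4 contrasts, at most 0.36, with differences of 3.70 to 5.70, whereas without experiment 1 it was at most 0.019. A second, dimmer C3 probe lay at −6.96 to −2.59 in aorta and −9.54 to −4.99 in muscle.

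In aorta, Cfb read 4.83, 3.14 and 4.32 in WT chow, 4.95, 5.11 and 4.32 in WT HFD, 3.89, 5.47 and 2.95 in KO chow, and 5.19, 5.31 and 3.91 in KO HFD. In muscle, Cfb read 1.02, 0.65 and 1.42 in WT chow, 1.92, 1.63 and 1.78 in WT HFD, 1.34, 0.85 and 1.26 in KO chow, and 1.97, 2.20 and 1.30 in KO HFD. The lowest aortic array, at 2.95, was above the highest muscle array, at 2.20. For Cfb the difference was 3.06 in WT chow (adjusted p = 6.9e-04), 3.02 in WT HFD (adjusted p = 7.4e-04), 2.95 in KO chow (adjusted p = 0.0019) and 2.98 in KO HFD (adjusted p = 8.9e-04), with a standard error of 0.53 (limma), 7.74-fold to 8.36-fold, and it was about as large in experiment 1 (median 3.12) as in experiments 2 and 3 (2.76). The call of Cfb was lost without experiment 1 in WT chow and KO HFD and without experiment 2 in KO chow, at an adjusted p of at most 0.078. Cfp encodes properdin, which stabilises that convertase. In aorta, Cfp read 0.53, 0.94 and 0.38 in WT chow, −0.06, 0.54 and −0.05 in WT HFD, 0.11, 1.23 and 0.24 in KO chow, and −0.44, −0.16 and 0.16 in KO HFD. In muscle, Cfp read 0.69, 1.34 and 0.69 in WT chow, 1.06, 0.47 and 0.62 in WT HFD, 0.40, 0.73 and 0.51 in KO chow, and 2.02, 0.46 and 0.62 in KO HFD. Aortic and muscle arrays overlapped, and only KO HFD was called lower in aorta, at −1.18 ± 0.38 (SE, adjusted p = 0.038). That call was lost in the deposited log2 table, with no filter and without any 1 experiment, with the differences of the alternatives between −1.54 and −0.54, and the muscle array of experiment 1 at 2.02 was the highest of all.

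The C3 promoter is shown because C3 is the point where the pathways meet and its level separated the tissues.
C3, chr17:57228137-57228386 (minus strand): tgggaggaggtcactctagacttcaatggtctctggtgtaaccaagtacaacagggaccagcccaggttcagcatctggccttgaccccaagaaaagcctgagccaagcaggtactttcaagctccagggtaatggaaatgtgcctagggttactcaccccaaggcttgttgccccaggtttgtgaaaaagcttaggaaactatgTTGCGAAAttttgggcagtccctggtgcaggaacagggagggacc
A C/EBP match (TTGCNNAA) lies 45 to 38 bases before the start, a motif present in 9.56% of all promoters in the table and in 3 of the 24 members with one (C3, C9 and Fcnb).

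In the terminal pathway Hc, which encodes C5, was called between the tissues in both strains on HFD and in neither strain on chow. In aorta, Hc read −4.22, −3.79 and −4.55 in WT chow, −1.42, −2.02 and −3.01 in WT HFD, −4.44, −4.50 and −5.88 in KO chow, and −2.41, −1.55 and −1.84 in KO HFD. In muscle, Hc read −5.13 and −5.68 in WT chow, −3.94, −5.61 and −6.06 in WT HFD, −3.57, −6.09 and −5.11 in KO chow, and −4.45, −4.56 and −5.92 in KO HFD. The third muscle array of WT chow was left out as an outlier spot and the other values are experiments 1 and 2. On HFD every aortic array was above every muscle array, and on chow the ranges overlapped. The share of all probes that separate on HFD alone is not given. The difference was 1.22 in WT chow (adjusted p = 0.28), 3.05 in WT HFD (adjusted p = 0.0035), −0.02 in KO chow (adjusted p = 0.99) and 3.04 in KO HFD (adjusted p = 0.0037), with a standard error of 0.65 in both HFD contrasts (limma). It was lost without experiment 2 in both HFD contrasts and without experiment 3 in KO HFD, with an adjusted p of at most 0.12. C6, the next protein of the membrane attack complex, was called higher in aorta in WT chow. In aorta, C6 read −3.88, −4.31 and −1.71 in WT chow, −4.64, −4.66 and −5.48 in WT HFD, −1.96, −4.05 and −3.69 in KO chow, and −4.68, −4.36 and −5.51 in KO HFD. In muscle, C6 read −4.62, −5.64 and −5.65 in WT chow, −4.84, −5.12 and −5.83 in WT HFD, −4.55, −5.31 and −5.92 in KO chow, and −4.15, −4.08 and −5.73 in KO HFD. Its aortic chow arrays reached −1.71, and the HFD arrays of both tissues lay between −5.83 and −4.08. The difference was 2.00 ± 0.66 (SE) in WT chow (adjusted p = 0.045, limma) and 2.03 in KO chow (adjusted p = 0.076). With the pool of animals as a block the adjusted p in KO chow was 0.032. The WT chow call was lost without any 1 experiment and in 6 of 10 alternatives in all, with differences of 1.04 to 2.63. C8g, which encodes the gamma chain of C8, ranged from −3.24 to −0.96 in aorta and from −5.28 to −1.60 in muscle and was not called, and C8a, C8b and C9 were at background on all arrays.

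Among the inhibitors in fluid phase, Serping1 and Clu were higher in aorta. Serping1 encodes C1 inhibitor, which shuts off C1r and C1s. In aorta, Serping1 read 5.92, 4.75 and 5.47 in WT chow, 5.90, 5.61 and 5.38 in WT HFD, 4.60, 5.17 and 5.48 in KO chow, and 5.50, 6.12 and 5.20 in KO HFD. In muscle, Serping1 read 2.34, 1.83 and 1.94 in WT chow, 3.36, 1.01 and 2.06 in WT HFD, 2.71, 1.82 and 2.06 in KO chow, and 3.16, 2.02 and 1.36 in KO HFD. The tissues were separated by more than 1 log2 unit, from 3.36 in muscle to 4.60 in aorta. The difference was 3.34 in WT chow (adjusted p = 2.5e-04), 3.48 in WT HFD (adjusted p = 1.9e-04), 2.88 in KO chow (adjusted p = 0.0017) and 3.43 in KO HFD (adjusted p = 2.1e-04), with a standard error of 0.51 (limma), or 7.38-fold to 11.2-fold. This call held in all 11 alternatives in 3 contrasts and was lost without experiment 2 or 3 in KO chow, with an adjusted p of at most 0.13. Clusterin, from Clu, keeps terminal complexes out of membranes. In aorta, Clu read 4.90, 5.62 and 5.31 in WT chow, 4.77, 5.32 and 4.90 in WT HFD, 4.91, 5.63 and 5.74 in KO chow, and 4.19, 5.76 and 5.07 in KO HFD. In muscle, Clu read 2.75, 2.67 and 3.71 in WT chow, 2.53, 3.37 and 3.84 in WT HFD, 3.24, 2.72 and 3.07 in KO chow, and 2.70, 4.03 and 3.10 in KO HFD. All 12 aortic arrays were above 4.03, the highest muscle array. For Clu the difference was 2.23 in WT chow (adjusted p = 0.0019), 1.75 in WT HFD (adjusted p = 0.0095), 2.42 in KO chow (adjusted p = 0.0019) and 1.73 in KO HFD (adjusted p = 0.01), with a standard error of 0.44 (limma). It lost its call in WT HFD without any 1 experiment, and in both KO contrasts without experiment 2 or 3, at an adjusted p of at most 0.13.

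Vtn, which encodes vitronectin, an adhesive protein that also binds terminal complexes, was the member called lower in aorta in all 4 contrasts. In aorta, Vtn read 1.68, 2.42 and 0.11 in WT chow, 2.23, 2.46 and 1.96 in WT HFD, 1.74, 2.27 and 2.52 in KO chow, and 2.95, 3.48 and 2.04 in KO HFD. In muscle, Vtn read 5.16, 5.04 and 4.47 in WT chow, 5.24, 4.43 and 4.32 in WT HFD, 5.19, 5.01 and 4.98 in KO chow, and 4.99, 5.46 and 4.69 in KO HFD. The highest aortic array, 3.48 in KO HFD, was below the lowest muscle array, 4.32 in WT HFD. The difference was −3.48 in WT chow (adjusted p = 7.2e-05), −2.45 in WT HFD (adjusted p = 0.0014), −2.89 in KO chow (adjusted p = 8.2e-04) and −2.22 in KO HFD (adjusted p = 0.0029), with a standard error of 0.46 (limma), or 4.67-fold to 11.2-fold lower. Without experiment 1 the adjusted p was 0.015 in WT chow and between 0.06 and 0.098 in the other contrasts. Cfi encodes factor I, which cleaves C3b and C4b. In aorta, Cfi read −5.02, −7.39 and −2.47 in WT chow, −4.80, −4.67 and −3.70 in WT HFD, −4.22, −0.41 and −3.11 in KO chow, and −5.24, −2.14 and −4.49 in KO HFD. In muscle, Cfi read −6.07, −5.46 and −2.65 in WT chow, −5.33, −7.64 and −6.91 in WT HFD, −5.63, −5.53 and −6.61 in KO chow, and −5.71, −6.23 and −8.21 in KO HFD. Values of Cfi were spread over several log2 units within a group, and 11 of 12 pairs had the aortic array higher. It was not called without a block, at a difference of 3.34 in KO chow (adjusted p = 0.11) and 2.76 in KO HFD (adjusted p = 0.13). With the pool of animals as a block the adjusted p was 0.043 and 0.048 (limma). In muscle, Cfi was well above background on only 2 of 3 KO chow and 1 of 3 KO HFD arrays. These differences are therefore taken against values that are partly at background.

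The Vtn promoter is shown as that of the member with the opposite tissue pattern.
Vtn, chr11:78498870-78499119 (plus strand): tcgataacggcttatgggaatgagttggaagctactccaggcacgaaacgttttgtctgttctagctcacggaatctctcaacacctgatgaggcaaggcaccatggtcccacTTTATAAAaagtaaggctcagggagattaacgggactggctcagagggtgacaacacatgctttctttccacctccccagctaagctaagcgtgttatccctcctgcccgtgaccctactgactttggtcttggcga
The TATA motif was also searched, and a match on each strand (TATAAA) overlaps at 137 to 130 bases before the start. The motif was present in 12.4% of all promoters in the table and in 4 of the 24 members with one (C3ar1, C7, Hc and Vtn).

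The inhibitors on the cell surface did not move as a group. Cd55, or decay-accelerating factor, which breaks up C3 convertases, was higher in aorta. In aorta, Cd55 read 1.88, 1.43 and 2.53 in WT chow, 2.04, 2.24 and 0.88 in WT HFD, 0.47, 0.63 and 1.11 in KO chow, and 2.09, 2.14 and 1.42 in KO HFD. In muscle, Cd55 read −2.25, −1.83 and −0.47 in WT chow, −0.65, 0.29 and 0.08 in WT HFD, −0.98, −0.44 and −0.74 in KO chow, and −0.82, 0.08 and −0.18 in KO HFD. The lowest aortic array, 0.47, was in KO chow and the highest muscle array, 0.29, in WT HFD. The difference was 3.47 in WT chow (adjusted p = 5.9e-05), 1.81 in WT HFD (adjusted p = 0.0091), 1.46 in KO chow (adjusted p = 0.061) and 2.19 in KO HFD (adjusted p = 0.0026), with a standard error of 0.45 (limma), and in KO chow the adjusted p was 0.036 with the pool of animals as a block. Both HFD calls of Cd55 were lost without experiment 1 or 2, at an adjusted p of at most 0.22.

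Cd59a, which blocks assembly of the membrane attack complex, was lower in aorta. In aorta, Cd59a read 2.90, 4.10 and 2.83 in WT chow, 1.90, 2.66 and 3.06 in WT HFD, 4.76, 4.22 and 3.88 in KO chow, and 2.63, 3.28 and 3.42 in KO HFD. In muscle, Cd59a read 4.77, 4.82 and 4.74 in WT chow, 3.65, 4.36 and 3.88 in WT HFD, 5.0, 4.75 and 4.64 in KO chow, and 4.04, 4.91 and 4.51 in KO HFD. All 12 pairs had the lower value in aorta, although the ranges of the tissues overlapped. The difference was −1.50 in WT chow (adjusted p = 0.01), −1.42 in WT HFD (adjusted p = 0.012), −0.51 in KO chow (adjusted p = 0.48) and −1.38 in KO HFD (adjusted p = 0.015), with a standard error of 0.37 (limma). A second probe gave 2 ranges in the same order, −1.11 to 2.37 in aorta and 1.18 to 3.10 in muscle. Both HFD calls of Cd59a were lost without any 1 experiment, at an adjusted p of at most 0.16, and the WT chow call without experiment 1 or 3, at most 0.19. Cr1l encodes Crry, the rodent inhibitor of C3 convertases. In aorta, Cr1l read −1.23, −0.42 and 0.20 in WT chow, −1.19, −1.18 and −0.03 in WT HFD, −0.82, −0.99 and 0.57 in KO chow, and −0.83, −1.46 and 0.41 in KO HFD. In muscle, Cr1l read −0.10, −0.17 and 1.08 in WT chow, −0.30, 0.17 and 1.02 in WT HFD, −0.22, 0.85 and 1.08 in KO chow, and −0.28, −0.06 and 1.25 in KO HFD. It was also lower in aorta in 12 of 12 pairs, with differences of −1.84 to −0.25. The smallest difference of Cr1l, −0.25 in WT chow, was no larger than the median shift of all probes there, −0.27. For Cd59a the smallest, −0.24 in KO chow, was about that shift, −0.23. Both counts of 12 pairs therefore depend on the scaling, and the share of all probes lower in every pair is not given. It was not called without a block, and with the pool of animals as a block the adjusted p was 0.023 in WT HFD and 0.043 in KO HFD (limma).

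Receptors for complement fragments were low in both tissues, and no receptor was called. C5ar1, the receptor of the C5a peptide, was well above background on 1 of 24 arrays. C3ar1, the receptor of C3a, ranged from −7.32 to −3.77 in aorta and from −7.24 to −1.62 in muscle. Itgam and Itgb2 encode the chains of complement receptor 3 of leukocytes. Itgam was at background on most arrays, and Itgb2 lay between −3.56 and −1.74 in aorta and between −3.16 and −0.63 in muscle.

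Several members moved with the marker lists of other cell types, array by array within a tissue. In bulk RNA, fewer cells of a type and less RNA per cell cannot be told apart. Deviations from the group means over the 12 arrays of a tissue were correlated with the mean of the macrophage (13 genes), fibroblast (10 genes) and adipocyte (7 genes) lists for 23 members, 138 relations in all, with exact two-sided permutation within groups (1296 permutations, smallest p possible 7.7e-04) and Benjamini-Hochberg adjustment over the 138. Arrays of a slide were not kept together in the permutation, so a shift shared by a slide also enters these p values. The r with the slide means removed, given below, has no p. In aorta, 3 members passed with the fibroblast list. For C3 Pearson's r was 0.98 (exact permutation p = 0.0015, adjusted p = 0.018) and Spearman's rho 0.91 (permutation p = 0.0054). For C2 r was 0.96 (exact permutation p = 0.0062, adjusted p = 0.039) and rho 0.86 (permutation p = 0.01). For Cfb r was 0.76 (exact permutation p = 7.7e-04, adjusted p = 0.018) and rho 0.82 (permutation p = 0.0015). When the 2 arrays with the most extreme list values were dropped, r was 0.96, 0.93 and 0.71 for C3, C2 and Cfb, and with the slide means removed it was 0.98, 0.97 and 0.72. Cfp passed with the macrophage list, with an r of 0.86 (exact permutation p = 0.0085, adjusted p = 0.049) and a rho of 0.65 (permutation p = 0.066). Its r was 0.84 without the 2 farthest arrays and 0.70 with the slide means removed. No C1q chain passed with the macrophage list in aorta. The r was 0.70 for C1qa, 0.76 for C1qc and 0.35 for C1qb (exact permutation, adjusted p = 0.078, 0.099 and 0.51). With the slide means removed it was 0.74, 0.77 and −0.03.

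In muscle, 10 members passed with the fibroblast list, 8 with the macrophage list and 2 with the adipocyte list. All 8 that passed with the macrophage list also passed with the fibroblast list. As in aorta, the share of all probes that would pass was not computed. Whether these counts are particular to complement genes was therefore not tested. The fibroblast and macrophage lists were both highest in experiment 1 there. C4b had an r of 0.98 (exact permutation p = 7.7e-04, adjusted p = 0.018) and a rho of 0.97 (permutation p = 7.7e-04) with the fibroblast list, and r was 0.96 without the 2 farthest arrays and 0.93 with the slide means removed. For Serping1 the same r was 0.94 (exact permutation p = 7.7e-04, adjusted p = 0.018), rho was 0.94 (permutation p = 0.0023), and r was 0.91 and 0.84 under these settings. C4b and Serping1 also passed with the macrophage list, at an r of 0.90 and 0.86 (exact permutation, adjusted p = 0.021 and 0.018). Those values were 0.65 and 0.58 with the slide means removed. With the macrophage list, C1qc had an r of 0.97 (exact permutation p = 7.7e-04, adjusted p = 0.018) and a rho of 0.96 (permutation p = 7.7e-04). For C1qa r was 0.96 (exact permutation p = 7.7e-04, adjusted p = 0.018) and rho 0.96 (permutation p = 7.7e-04). For C1qb r was 0.91 (exact permutation p = 0.0046, adjusted p = 0.034) and rho 0.94 (permutation p = 0.0031). With the slide means removed these were 0.90, 0.90 and 0.98, and without the 2 farthest arrays 0.96, 0.94 and 0.88. The same 3 chains also passed with the fibroblast list, at an r of 0.84, 0.80 and 0.86 for C1qc, C1qa and C1qb (exact permutation, adjusted p = 0.03, 0.042 and 0.018), and 0.42, 0.44 and 0.55 with the slide means removed. C3 passed with both lists, at an r of 0.96 with the fibroblast list and 0.93 with the macrophage list (exact permutation, adjusted p = 0.018 for each), and 0.87 and 0.80 with the slide means removed. For C3ar1 the r with the fibroblast list was 0.86, and 0.04 with the slide means removed, so that relation did not hold within slides. Between the tissues the fibroblast list itself was higher in aorta by 4.82, 4.08, 4.38 and 3.87 in WT chow, WT HFD, KO chow and KO HFD, in 12 of 12 pairs. The endothelial list was lower in aorta, with differences of −1.06, −1.44, −0.61 and −1.44, also in 12 of 12 pairs, and the pericyte list too (−1.88, −0.77, −1.66 and −0.76). The adipocyte list was higher in aorta on chow, by 2.90 in WT and 2.59 in KO with 3 of 3 pairs higher in each, and differed by −0.24 and 0.48 on HFD, with 2 of 3 pairs higher in each. The skeletal muscle fibre list was at −4.48 to −1.74 in aorta and 0.52 to 3.66 in muscle. The macrophage list lay between −3.94 and −1.16 in aorta and between −5.84 and 0.27 in muscle, and 0 of its 13 genes were at background on every array of a tissue. The liver list was at −5.74 to −3.54 and −7.24 to −4.37, with Apoa1 and Ttr at background on all arrays. The part of these other cells in the tissue differences was not tested.

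**Figure D3:**
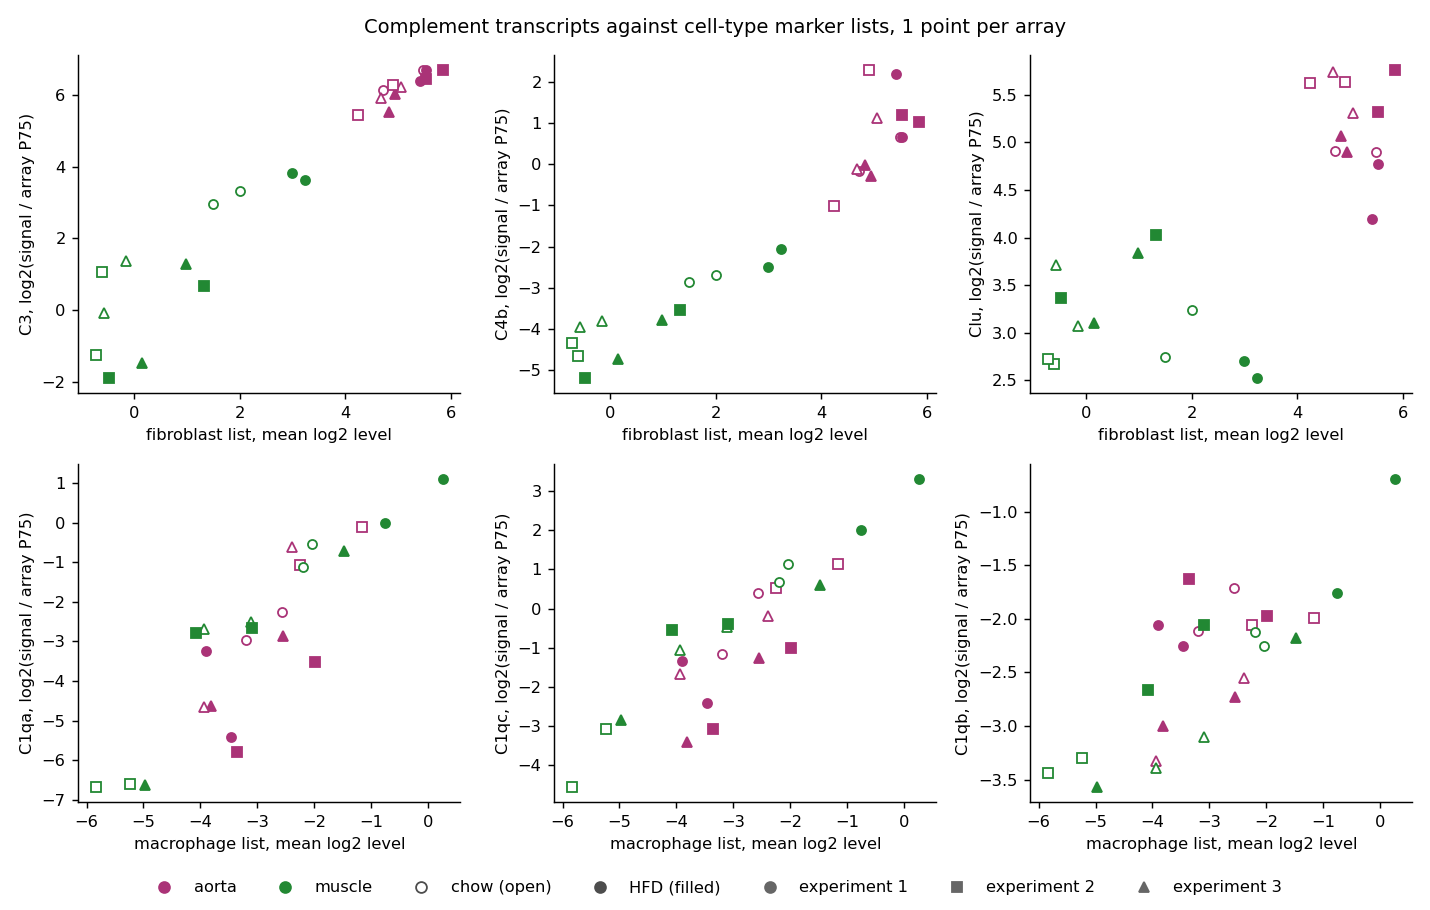
Log2 ratio of signal to the 75th percentile of its array (P75) for C3, C4b and Clu against the mean of the fibroblast list, and of C1qa, C1qc and C1qb against that of the macrophage list, 1 point for each array of aorta or muscle, open for chow and filled for HFD. In muscle, the deviations from the group means correlated at 0.96 for C3 with the fibroblast list and at 0.96 and 0.97 for C1qa and C1qc with the macrophage list, and each of these genes also passed with the other list.

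The diet comparison asked how HFD changed the endothelium of each strain. After adjustment over all probes, 0 complement genes were called in any of the 4 comparisons (limma with a block for each strain and experiment). The share of all probes called was 0% in WT aorta, 0% in KO aorta, 0% in WT muscle and 0.00389% in KO muscle. At an unadjusted p under 0.05 there were 4, 3, 4 and 0 members of 23, where 5.77%, 11.3%, 12.1% and 8.49% of all probes were under it. The 4 of WT aorta include Fcna and Fcnb, which entered the test in aorta only through the group where each was high. The methods' test on the 3 ratios also gave 0 members after adjustment. The median HFD minus chow difference of the members was −0.07, 0.09, 0.15 and 0.27, against 0.03, −0.01, −0.02 and 0.00 for all probes. By the rule of the study, which asks each of the 3 experiments for a log2 ratio past 1 with a shared sign, WT aorta had 1 member up and 2 down, where 0.735% and 0.858% of the probes pass. KO aorta had 1 up and 1 down, where 1.81% and 1.12% pass. In muscle, 0 members passed in either strain, against 0.872% up and 0.954% down in WT and 0.459% and 0.530% in KO.

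Hc passed that rule in the aorta of WT and of KO alike, upward in each. Its levels, given above, were −4.55 to −3.79 on the WT chow arrays and −3.01 to −1.42 on WT HFD, and −5.88 to −4.44 on KO chow and −2.41 to −1.55 on KO HFD. The chow and HFD arrays of the aorta did not overlap in either strain, and the share of all probes that separate in this way is not given. The HFD minus chow difference was 2.80, 1.77 and 1.55 in the experiments of WT, a mean of 2.04 ± 0.44 (SE, limma adjusted p = 0.44), and 2.03, 2.95 and 4.04 in KO, a mean of 3.01 ± 0.44 (limma adjusted p = 0.2). In muscle it was 0.63 in WT, from 2 experiments, and −0.05 in KO.

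Fcna passed the filter in aorta only through the 3 WT chow arrays, where it was high, so its difference is given as a description. In aorta, Fcna read −3.83, −2.23 and −1.64 in WT chow, −7.33, −7.19 and −8.19 in WT HFD, −4.84, −3.12 and −7.01 in KO chow, and −5.63, −7.85 and −8.19 in KO HFD. The 3 WT chow arrays were well above background and the 3 WT HFD arrays were not, so the level on HFD is a bound, at least 13.2-fold lower (limma adjusted p = 0.28). In KO aorta the difference was −2.23 ± 0.87 (SE, limma adjusted p = 0.43), and Fcna was above background on 2 of 3 chow and 1 of 3 HFD arrays. C1qc differed by −1.74, −2.15 and −3.20 in WT aorta, a mean difference of −2.36 ± 0.72 (SE, limma adjusted p = 0.67). C1qa differed by −0.99, −3.39 and −4.02 in the same pairs (limma adjusted p = 0.86). The macrophage list differed by −1.34, −0.83 and −1.43 in these pairs, and its part in the values was not tested. Cfi, lower past 1 in KO aorta, differed by −1.02, −1.73 and −1.38 (limma adjusted p = 0.49).

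The other members with an unadjusted p under 0.05 are given by their differences. Fcnb was above background on the 3 HFD arrays and on 0 chow arrays of WT aorta, at least 1.82-fold higher (limma adjusted p = 0.67). It was tested in aorta only through those 3 HFD arrays, so this too is a description. Cd59a differed by −1.18 in KO aorta and by −0.81 in WT muscle (limma adjusted p = 0.43 and 0.33). In WT muscle Cd55 differed by 1.60, 2.13 and 0.55, a mean of 1.43 ± 0.32 (SE, limma adjusted p = 0.22), C3ar1, tested in muscle only through the KO HFD arrays, by 1.41 (limma adjusted p = 0.32) and Cfb by 0.75 (limma adjusted p = 0.4). The difference of C3 was 0.27 in WT and 0.10 in KO aorta and −0.29 and −0.12 in muscle, with a standard error of 0.33 in aorta and 1.07 in muscle.

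**Figure D4:**
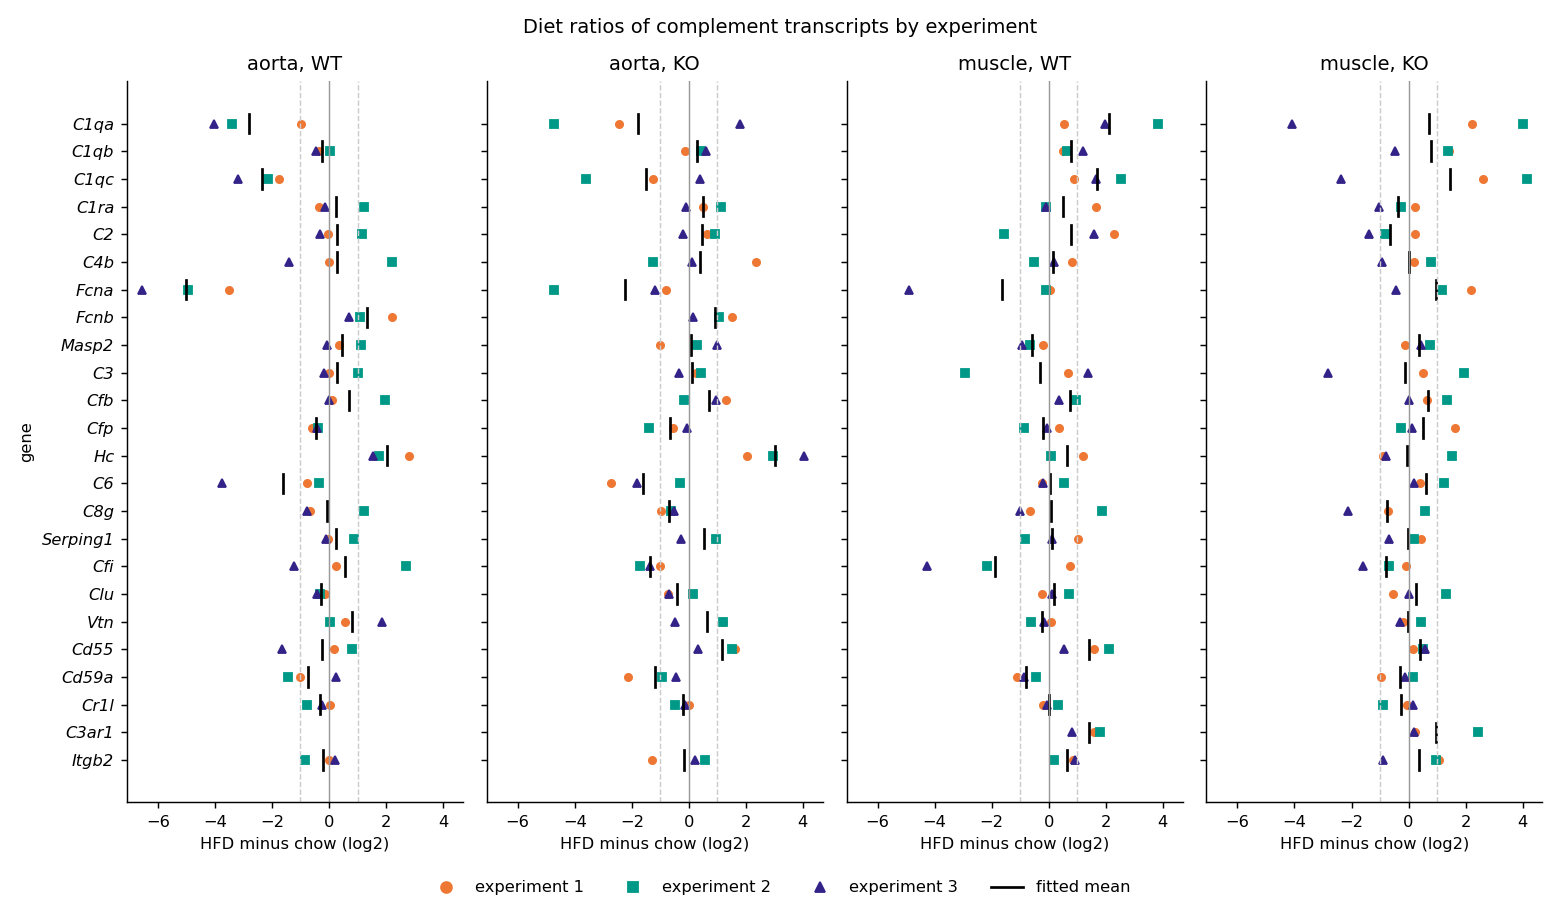
HFD minus chow difference in log2 signal for the complement genes tested, 1 point for each experiment, by tissue and strain, with a line at the fitted mean and dashed lines at −1 and 1. Hc lies above 1 in all 3 experiments of both strains in aorta, Fcna lies below −1 in all 3 of WT aorta, and 0 genes lie past 1 in all 3 experiments of muscle.

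Whether the diet response differed between strains or tissues was tested as a difference of differences. In aorta and in muscle, KO minus WT, and in WT and in KO, aorta minus muscle, 0 members and 0% of all probes were called in each of the 4 tests (limma). The unadjusted p was under 0.05 for 0 and 1 members in the first pair of tests and 5 and 2 in the second, where 2.62%, 4.12%, 5.46% and 6.77% of all probes were under it. The lowest adjusted p was that of Hc in KO, whose response was higher in aorta than in muscle by 3.06 ± 0.76 (SE, limma adjusted p = 0.5). C3ar1 in WT had a difference of −2.59 ± 0.76 (SE, limma adjusted p = 0.67) in the same direction in all 3 experiments. It entered this test only through the KO HFD arrays of muscle, so the difference is given as a description. In WT aorta C3ar1 was above background on 2 of 3 chow and 1 of 3 HFD arrays, and in WT muscle on 2 of 3 on each diet.

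The comparison of strains asked what the loss of galectin-3 changed. In aorta on chow 0 of 23 members were called (limma), against 0.0116% of all probes, and 0 on HFD, against 0.00387%. In muscle 0 members and 0% of all probes were called on either diet. At an unadjusted p under 0.05 there were 3 members in aorta on chow, where 4.41% of all probes were under it. There were 0 in aorta on HFD and in muscle on chow and HFD, where 1.15%, 2.42% and 3.15% were. The KO minus WT difference of Cd55 there was −1.41, −0.80 and −1.42 over the experiments, a mean of −1.21 ± 0.43 (SE, limma adjusted p = 0.94). The levels of Cd55 did not overlap, 0.47 to 1.11 in KO chow and 1.43 to 2.53 in WT chow. The share of all probes that separate the strains in this way is not given. For Cd59a the difference was 1.01 ± 0.45 (SE, limma adjusted p = 1) and for Fcna, tested through WT chow alone, −2.43 ± 0.96 (SE, limma adjusted p = 1).

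Complement genes outside the 33 members were read from a list of 27, all with a probe. Between the tissues 18 were tested, and 8, 8, 5 and 8 were higher and 2, 1, 1 and 1 lower in aorta in WT chow, WT HFD, KO chow and KO HFD. C1rb, the near-identical copy of C1ra, and Ptx3, a secreted pattern-recognition protein that binds C1q, were among those higher in all 4 (limma). Cd93 was lower in aorta in 3 contrasts and Crp in both chow contrasts. In the diet comparisons 0 of 17 were called in either tissue. Cfd, or adipsin, is the protease that activates factor B and a known product of adipocytes. Its HFD minus chow difference was −5.25, −4.31 and −3.20 in WT aorta, a mean of −4.26 ± 0.66 (SE, limma adjusted p = 0.22), and had a mean difference of −4.02 in KO aorta (limma adjusted p = 0.23). In muscle the differences were −1.78 and −3.66 (limma adjusted p = 0.43 and 0.37). The adipocyte list differed by −3.01 in WT and −2.91 in KO aorta in all 6 pairs in the same direction, and its part in the value of Cfd was not tested.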

How the data were processed

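Per the labels and the file headers, sorted endothelial RNA was amplified, labelled with Cy3 and read on single-colour arrays, 1 pool of mice for each array. The deposited scanner files hold spot intensity from Agilent Feature Extraction, version 10.5.1.1 by the headers and 9.1 by the submitters' notes, as a processed signal corrected for background. The authors also deposited a log2 table of the same signals, shifted by 1 constant for each array and centred within each tissue.

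Here, the main value was log2 of the processed signal over the array's 75th percentile. Control spots and outlier spots were left out, spots of a probe were averaged, and 43379 non-control spots gave 41174 probes, of which 27198 were named through RefSeq accessions. The files hold 0 columns of no sample. Levels were fitted with limma 3.58.1 (R 4.3.3), per tissue with a block for strain and experiment (diet), or over all 24 arrays (tissue), over probes that all 3 arrays of some group showed clearly above background, with Benjamini-Hochberg adjustment. The code was tested on simulated data. Marker relations used exact permutation (scipy 1.17.1). The number of arrays limits the precision.

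The members, gene lists and tests were chosen with earlier results of these data known. Named genes were the members called in a contrast, those past 1 in all 3 experiments, up to 8 with the largest mean difference, and up to 12 fixed members by array. Alternatives were normexp background on the median signals, quantile normalization, the deposited log2 table, other filters, each experiment left out, other blocks (slide, pool of animals), the mean of all probes and the methods' t-test on the ratios. Treating the slide as a random block was chosen after seeing the data. The pool of animals pairs the tissues, since both came from the same mice by the methods, and the deviations of the pairs correlated at 0.07 to 0.40. The values of 1 gene of the list of other complement genes are not reported here.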

Additional observations from a re-analysis of the deposited data

Results flagged for a closer look

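In 3 cases among members tested in both tissues, the diet response had 1 sign in all 3 aortic experiments and the opposite in all 3 of muscle. The difference did not pass the adjusted threshold in any of them. C3ar1 in WT, which was not tested in aorta, also ran in opposite directions. The share of all probes that do so was not counted. The HFD minus chow difference of C1qa in WT was −0.99, −3.39 and −4.02 in aorta and 0.54, 3.82 and 1.97 in muscle, a difference between the tissues of −4.91 ± 2.10 (SE, limma adjusted p = 0.87). For C1qc in WT it was −1.74, −2.15 and −3.20 in aorta and 0.88, 2.52 and 1.65 in muscle, a difference of −4.05 ± 1.48 (SE, limma adjusted p = 0.79). In the same pairs the macrophage list differed by −1.34, −0.83 and −1.43 in aorta and by 1.27, 1.17 and 2.46 in muscle, and its part was not tested. For C6 in KO the difference was −2.73, −0.31 and −1.82 in aorta and 0.40, 1.24 and 0.19 in muscle, or −2.23 ± 0.86 between the tissues (SE, limma adjusted p = 0.71).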

How the results depend on the processing

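With 3 arrays in a group, the counts depended most on the number of experiments. Leaving out 1 experiment gave 6 to 9 members called between the tissues in WT chow, 4 to 7 in WT HFD, 1 to 7 in KO chow and 6 to 7 in KO HFD. The number of all probes called fell too, in KO chow from 1754 to 1286, 422 or 275 without experiment 1, 2 or 3. The median difference of the members then ranged from 0.64 to 2.27 between the tissues in WT chow, from 0.41 to 0.67 in WT HFD, from 0.15 to 1.53 in KO chow and from −0.11 to 0.67 in KO HFD. On diet it ranged from −0.28 to 0.29 in WT aorta, from −0.27 to 0.04 in KO aorta, from 0.07 to 0.63 in WT muscle and from −0.13 to 0.39 in KO muscle. Members past 1 in all experiments kept then numbered 1 to 2 up in WT aorta, 1 to 4 up and 2 to 3 down in KO aorta, 1 to 2 up and 0 to 1 down in WT muscle, and 0 to 4 up in KO muscle. With fewer experiments the rule is easier to pass for any probe. The share of all probes that pass it then is not given, so these counts are no result about complement genes. With no filter the median between the tissues in WT HFD was 0.00, and 1 member was past 1 in WT muscle. With the filter on every array the median in KO HFD was 1.52, 1 member was past 1 down in WT aorta, and 0 were in KO aorta. That last count was also 0 under normexp background and under quantile normalization, where 0.646% and 1.07% of all probes pass. For the 2 filter settings the share of all probes past 1 is not given. With slide means removed, the median r of the members in muscle was 0.40 with the adipocyte list and 0.45 with the fibroblast list. The causes were not tested, apart from the fewer arrays or probes that a setting leaves.

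For pairing, the pool of animals as a replicate block gave 11, 12, 11 and 14 members called between the tissues in WT chow, WT HFD, KO chow and KO HFD, and added 6 calls, while the share of all probes called rose too, from 6.40% to 9.95% in KO chow and from 16.3% to 24.8% in KO HFD. The numbered experiments pair the diets only as ratios in the methods, and these pairs correlated at 0.01 to 0.46. With no replicate block 0 members were called on diet, as with the block. With the slide as a replicate block the count was 0 as well. The methods' t-test gave 0 probes after adjustment and 1218, 1736, 2118 and 1287 at an unadjusted p under 0.05, for WT and KO aorta and WT and KO muscle. No value of a called member changed sign under any alternative run. Dim probes and 3 arrays a group limit what could be detected.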
